A study of Mus musculus with 32 samples.

Results

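The genes examined encode 8 subunits of potassium channels that set the membrane potential of vascular cells: Kcnj8 and Abcc9 (the KATP channel), Kcnj2 and Kcnj12 (Kir2 channels), Kcnma1 and Kcnmb1 (the BK channel) and Kcnn3 and Kcnn4 (calcium-activated channels of small and intermediate conductance). They form a list of named genes, and all 8 were found among the 55357 genes of the read count table through their Ensembl identifiers. Brain arteries of 32 mice were sequenced, 1 library per mouse and 8 mice in each of 4 groups. At 3 months of age, Notch3-/- mice, which lack a working Notch3 gene, were compared with Notch3+/+ mice. TgNotch3R169C mice, which carry rat Notch3 with the CADASIL-linked R169C change on a genomic transgene in addition to their own intact mouse Notch3, and their WT (non-transgenic) controls were 12 months old. The Notch3 loss is present in every cell rather than in smooth muscle alone, and each mutant line was crossed repeatedly onto a C57BL/6 background. None of the mice was treated, their sex is not given in the labels, and both the age and the mouse line differ between the 3-month and the 12-month groups. The comparisons asked whether the channel genes differed with loss of Notch3 or with the CADASIL transgene, in each case against littermate controls of the same age.

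Arterial tone follows the membrane potential of smooth muscle cells: opening of potassium channels hyperpolarizes the cells, closes voltage-gated calcium channels and relaxes the vessel. KATP channels open when ATP falls or when vasodilators raise cAMP, Kir2 channels open when neurons release potassium onto the vessel, and BK channels answer local calcium release from ryanodine receptors. SK and IK channels sit in the endothelium, where they start a hyperpolarization that gap junctions carry to the muscle layer.

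The results below turn on Kcnj8, Abcc9 and Kcnmb1, so the promoters of these genes and of Kcnma1, the partner of Kcnmb1, are shown first. Kcnj8, which encodes the pore Kir6.1, and Abcc9, which encodes the regulatory subunit SUR2, lie next to each other on chromosome 6, on the same strand, with 0 annotated genes between them and a gap of 16248 bases. Kcnj2, Kcnj12 and Kcnmb1 lie on chromosome 11, Kcnma1 on chromosome 14, Kcnn3 on chromosome 3 and Kcnn4 on chromosome 7. None of them shares a chromosome with Notch3 itself. Each window runs 5′ to 3′ on the gene's strand from 250 bases before to 50 bases after the RefSeq start site, in build GRCm38.p6, and capitals mark the letters TGGGAA or their reverse complement TTCCCA.
Kcnj8, chr6:142571565-142571864, minus strand: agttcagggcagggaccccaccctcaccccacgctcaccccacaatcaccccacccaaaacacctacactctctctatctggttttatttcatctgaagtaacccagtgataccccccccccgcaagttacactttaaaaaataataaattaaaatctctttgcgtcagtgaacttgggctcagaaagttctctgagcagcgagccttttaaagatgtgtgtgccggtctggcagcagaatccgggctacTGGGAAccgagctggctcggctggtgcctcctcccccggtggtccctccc
Abcc9, chr6:142702225-142702524, minus strand: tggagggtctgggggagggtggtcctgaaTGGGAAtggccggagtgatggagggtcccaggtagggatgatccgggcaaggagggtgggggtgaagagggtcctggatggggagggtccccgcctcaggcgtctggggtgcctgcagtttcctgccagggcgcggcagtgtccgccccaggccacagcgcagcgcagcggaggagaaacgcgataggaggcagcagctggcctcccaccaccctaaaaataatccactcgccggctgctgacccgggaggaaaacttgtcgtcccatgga
Kcnmb1, chr11:33962763-33963062, plus strand: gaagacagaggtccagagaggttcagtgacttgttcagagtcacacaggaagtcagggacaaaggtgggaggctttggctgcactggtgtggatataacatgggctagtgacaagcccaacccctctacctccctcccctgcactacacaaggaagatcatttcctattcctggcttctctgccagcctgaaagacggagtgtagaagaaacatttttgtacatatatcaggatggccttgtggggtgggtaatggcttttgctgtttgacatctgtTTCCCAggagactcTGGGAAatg
Kcnma1, chr14:24004156-24004455, minus strand: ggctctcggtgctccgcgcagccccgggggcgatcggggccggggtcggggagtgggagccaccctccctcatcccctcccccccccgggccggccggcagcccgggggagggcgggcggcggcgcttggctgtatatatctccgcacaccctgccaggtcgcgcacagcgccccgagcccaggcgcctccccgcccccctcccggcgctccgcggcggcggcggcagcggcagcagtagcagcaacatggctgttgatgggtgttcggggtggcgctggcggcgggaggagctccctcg
The motifs searched on both strands were GTGGGAA, the core sequence bound by RBPJ, which is the DNA-binding partner of Notch receptors, and the CArG box bound by serum response factor, the regulator of contractile genes. GTGGGAA occurred in 6.38% and the CArG box in 1.63% of 32851 promoter windows of this length, and in 0 of the 8 channel windows. The shorter run TGGGAA, which every GTGGGAA contains and which was added after the windows had been seen, occurred in 25.6% of all windows and in 5 of the 8: Kcnj8, Abcc9, Kcnj2, Kcnmb1 and Kcnn3. In Kcnmb1 it occurred at 2 places, 27 and 41 bases after the start site, and in Kcnj8 it began at the start site. These are matches of letters, and nothing was measured about binding.

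The libraries held 20289487 to 54481934 counts, and the 8 channel genes had between 123 and 2945 counts in any library. Notch3 followed the labels, at 16.2 ± 1.82 CPM (read counts scaled to library size by TMM; SD, n = 8) in Notch3-/- against 83.6 ± 12.0 CPM in Notch3+/+ mice and at 182 ± 34.5 CPM in TgNotch3R169C against 73.2 ± 8.19 CPM in WT mice. Smooth muscle markers were abundant in every library, with a summed level of 955 to 3713 CPM over Acta2, Myh11, Tagln, Cnn1, Smtn, Lmod1, Des and Myocd. Markers of neurons, astrocytes and other cells of the brain were present too, so each value is an average over a mixed tissue in which fewer cells of a type and less RNA per cell cannot be told apart. In 7 libraries, 1 from Notch3-/-, 2 from TgNotch3R169C and 4 from WT mice, markers of choroid plexus stood apart, with a mean log2 CPM over 6 markers of at least 8.01 against at most 5.46 in the others. Values without these libraries are given beside the calls they ended and the values they moved most.

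Kcnj2, which encodes Kir2.1, had the highest level per length of the 8 genes in all 4 groups. In Notch3+/+ mice it stood at 9.78 CPM per kilobase of exon (mean, n = 8), and its range did not overlap that of the next gene in any group. Kcnmb1 followed at 3.47 CPM per kilobase in Notch3+/+ mice, then Kcnj12 at 2.68, Kcnj8 at 2.44, Kcnma1 at 2.21, Kcnn4 at 2.01, Abcc9 at 1.86 and Kcnn3 at 1.18 CPM per kilobase. Of these neighbors, only Abcc9 and Kcnn3, besides Kcnj2 and Kcnmb1, did not overlap in their ranges, so the order in the middle is not settled by these mice. In the other groups the middle of the order differed: Kcnj8 was second in Notch3-/- and WT mice, at 3.35 and 3.30 CPM per kilobase, and Kcnj12 was second in TgNotch3R169C mice, at 3.16 CPM per kilobase. Kcnmb1, second in Notch3+/+ mice, was sixth in WT mice and seventh in TgNotch3R169C mice. These ranks also depend on the division by exon length, which ran from 2548 bases for Kcnj8 to 16976 for Kcnma1. In CPM not divided by length, Notch3+/+ mice averaged 53.2 for Kcnj2, 37.5 for Kcnma1, 15.5 for Abcc9 and 14.5 for Kcnmb1. Kcnj8 had the lowest mean on that scale, at 6.21 CPM. Relative to its own mean, Kcnma1 varied most among mice of a group, with a coefficient of variation of 36.0%, against 12.9% for Abcc9, the least variable. The plot of the 8 genes by mouse shows this spread.

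**Figure D1:**
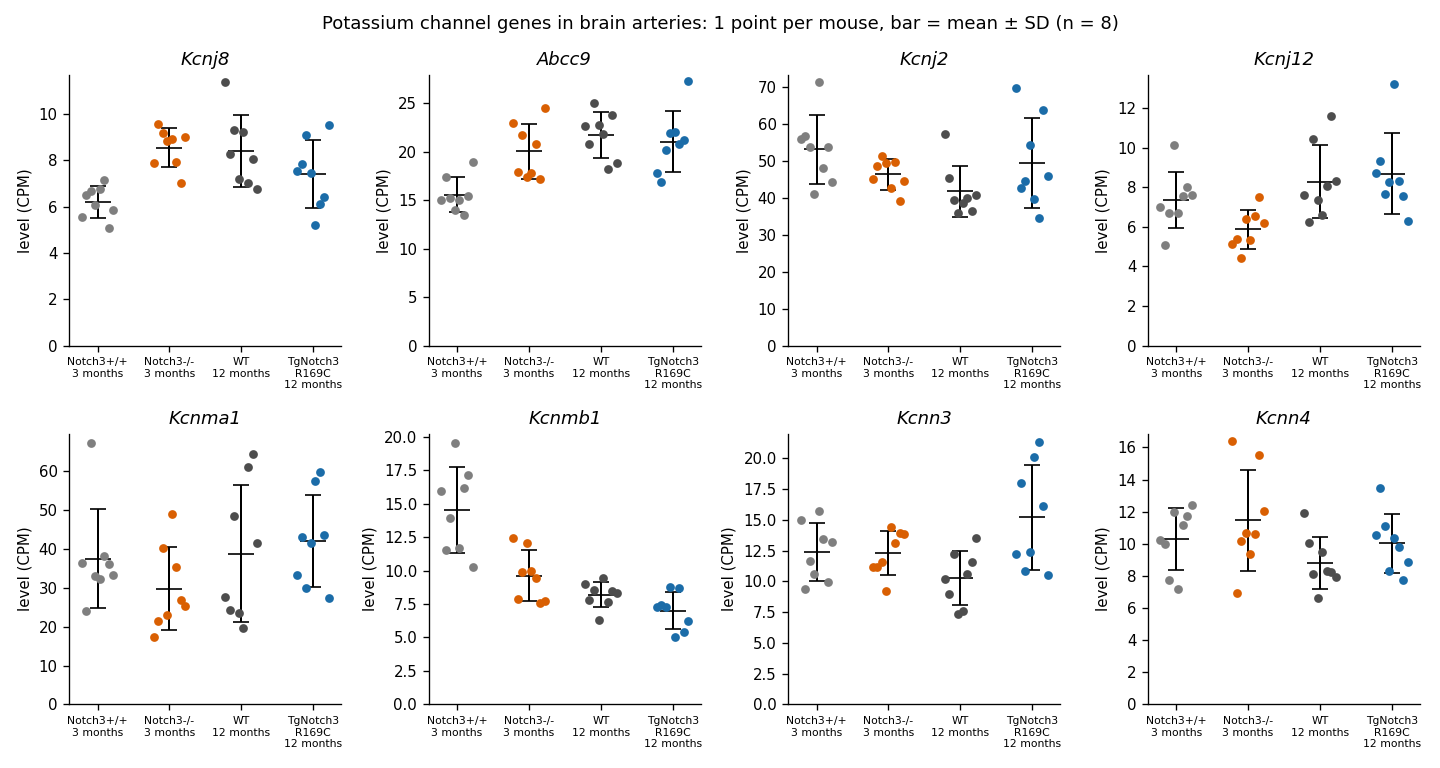
Level of each channel gene in CPM (vertical axes, each starting at 0) in each of the 32 mice, by group; points are mice and bars are the mean ± SD of 8 mice. Kcnj8 and Abcc9 have lower means in Notch3+/+ mice than in the other 3 groups, and Kcnmb1 has a higher mean there.

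In Notch3-/- mice, 1 of the 8 channel genes rose past the threshold and none fell: Kcnj8 was 1.38-fold higher. Over all 17714 genes tested, 0.649% were called at an adjusted p below 0.05, 0.198% higher and 0.452% lower (edgeR's quasi-likelihood test with Benjamini-Hochberg adjustment). Abcc9 and Kcnmb1 missed the threshold narrowly, the first with a higher and the second with a lower mean. At an unadjusted p below 0.05 stood 4 of the 8 genes (Kcnj8, Abcc9, Kcnmb1 and Kcnj12), where 7.69% of all genes did. The median log2 change was -0.10 over the 8 genes and -0.001 over all genes.

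In TgNotch3R169C mice, none of the 8 genes was called, where 0.113% of 17731 genes were, 0.102% higher and 0.0113% lower. Only Kcnn3 stood at an unadjusted p below 0.05, against 7.27% of all genes. DESeq2 also called 0 of the 8, and 74 of all genes where edgeR called 20. The median log2 change of the 8 genes was 0.09, and that of all genes was -0.01. Between the control groups (WT at 12 months relative to Notch3+/+ at 3 months), Kcnj8 and Abcc9 rose and Kcnmb1 fell, where 7.92% of 17643 genes were called, 3.87% higher and 4.05% lower. At an unadjusted p below 0.05 stood 4 of the 8 there (Kcnj8, Abcc9, Kcnj2 and Kcnmb1), against 24.2% of all genes. Age and mouse line cannot be told apart in this comparison, and it shares the 8 Notch3+/+ mice with the comparison of Notch3-/- mice. The difference between the mutants' changes was the change in TgNotch3R169C mice minus that in Notch3-/- mice, each against its own controls. Tested over all 32 mice, this difference was called for 0 of the 8 genes. Over all 18555 genes 0.35% were called, 0.264% with a difference above 0 and 0.0862% below. At an unadjusted p below 0.05 it stood for 4 of the 8 (Kcnj8, Abcc9, Kcnj2 and Kcnn3), against 8.62% of all genes. DESeq2 called it for 1 of the 8, Kcnj8, and for 152 of all genes where edgeR called it for 65.

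**Figure D2:**
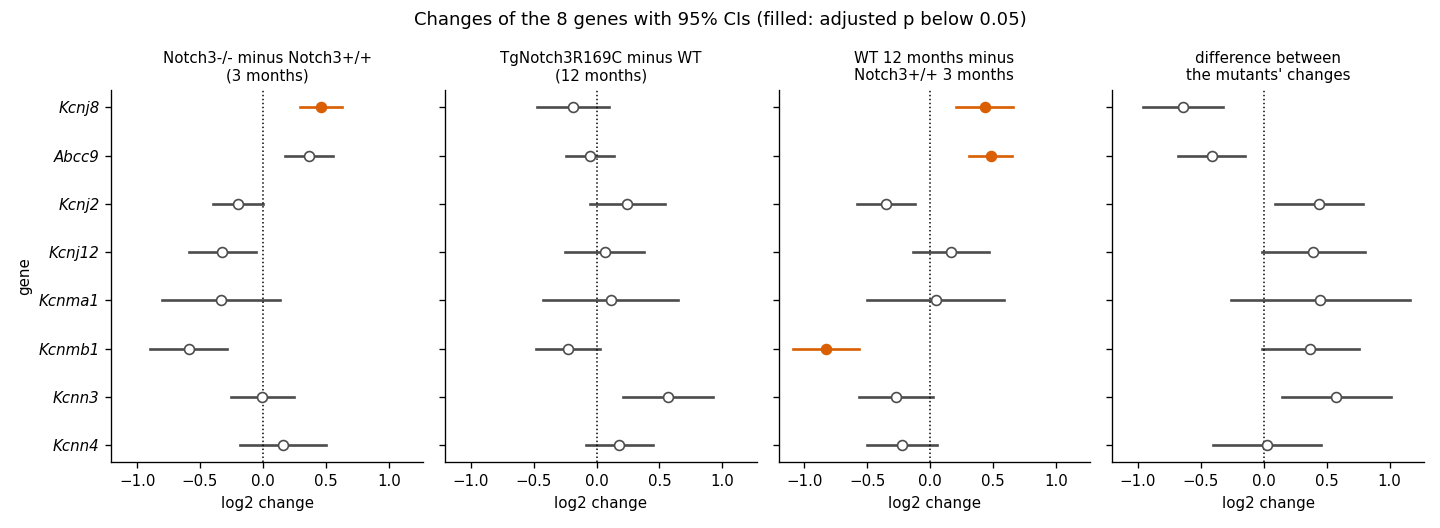
Log2 change (horizontal axes) of each of the 8 genes with its 95% CI, in 4 panels, one per comparison; filled points have an adjusted p below 0.05. Kcnj8 is filled in Notch3-/- mice, Kcnj8, Abcc9 and Kcnmb1 are filled between the control groups, and no point is filled for TgNotch3R169C mice or for the difference between the mutants' changes. That difference is the change in TgNotch3R169C mice minus that in Notch3-/- mice.

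Kcnj8, whose product forms the pore of the vascular KATP channel, was expressed at 5.10 CPM in the lowest, 6.30 in the median and 7.14 in the highest Notch3+/+ mouse. The lowest Notch3-/- mouse was at 7.03, the median at 8.87 and the highest at 9.59 CPM. The lowest Notch3-/- mouse stood below the highest Notch3+/+ mouse, every other Notch3-/- mouse stood above all Notch3+/+ mice, and 8 of 8 exceeded the Notch3+/+ mean. The log2 change was 0.46 (SE 0.08, 95% CI 0.29 to 0.63, adjusted p = 0.00848, edgeR), and it remained called when any single mouse was left out, with adjusted p between 0.00422 and 0.0193.
In 12-month-old mice, Kcnj8 ranged from 6.75 to 11.4 CPM with a median of 8.18 in WT mice and from 5.19 to 9.51 CPM with a median of 7.50 in TgNotch3R169C mice. The groups overlapped over most of their ranges, and the log2 change was -0.18 (95% CI -0.47 to 0.10, adjusted p = 0.767). The mutants' changes differed by -0.64 on the log2 scale (SE 0.16, 95% CI -0.96 to -0.32), which missed the threshold (adjusted p = 0.0600, edgeR). Leaving out 1 of 6 mice in turn (Notch3-/- replicates 1 and 7, TgNotch3R169C replicates 3 and 8, and WT replicates 6 and 8) brought that p to between 0.0254 and 0.0493. Between the controls the log2 change was 0.43, higher in WT mice (SE 0.11, adjusted p = 0.0210, edgeR), and 8 of 8 WT mice exceeded the Notch3+/+ mean.

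Abcc9, whose product surrounds that pore and carries the binding sites of KATP openers and blockers, had a lowest level of 13.4, a median of 15.1 and a highest of 19.0 CPM in Notch3+/+ mice. The Notch3-/- mice had 17.2, 19.3 and 24.5 CPM. All 8 Notch3-/- mice exceeded the Notch3+/+ mean, while Notch3+/+ replicates 2 and 8 reached into the Notch3-/- range. The log2 change was 0.37 (SE 0.09, 95% CI 0.18 to 0.55) with an adjusted p of 0.0831. Without Notch3+/+ replicate 8, the change was 0.42 and its adjusted p was 0.0320, and DESeq2 gave an adjusted p of 0.0122 with all mice.
In WT mice aged 12 months the lowest, median and highest were 18.2, 22.2 and 25.0 CPM, and in TgNotch3R169C mice they were 16.8, 21.0 and 27.2 CPM. These groups lay over each other (log2 change -0.05, 95% CI -0.24 to 0.14, adjusted p = 0.908), and without the choroid plexus-rich libraries the log2 change was -0.19 (adjusted p = 0.685). Against the Notch3+/+ mice the WT mice were higher, with a log2 change of 0.48 (SE 0.08, adjusted p = 0.00281) and 1 Notch3+/+ mouse, replicate 8, inside the WT range. Abcc9 was thus called in the comparison of the controls and not in that of either mutant.

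The ratio of Abcc9 to Kcnj8 was similar in the groups. Per kilobase it averaged 0.771 ± 0.137 (SD, n = 8) in Notch3+/+, 0.719 ± 0.118 in Notch3-/-, 0.800 ± 0.110 in WT and 0.893 ± 0.217 in TgNotch3R169C mice, given as a description without a test. The means of these neighboring genes differed in the same direction in each pair of groups compared. However, the genes did not follow each other from mouse to mouse within groups. With group means removed, Pearson's r over 32 mice was 0.158 (permutation within groups, p = 0.423, adjusted over 4 pairs 0.847) and Spearman's rho was 0.0832 (p = 0.664, adjusted 0.887). Within groups of 8, r ran from -0.260 in Notch3+/+ to 0.585 in WT mice.

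Smooth muscle markers differed too, mostly in the direction opposite to Kcnj8 and Abcc9 in Notch3-/- mice and between the controls. In TgNotch3R169C mice the markers, Kcnj8 and Abcc9 all had lower means, and none was called. In Notch3-/- mice, 5 of 8 smooth muscle markers fell (Myh11, Cnn1, Lmod1, Acta2 and Tagln, by 0.63 to 1.04 on the log2 scale), while Des, another of the 8, had a higher mean (0.28, adjusted p = 0.296, above the Notch3+/+ mean in 8 of 8 mice). The summed level ran from 1432 to 2205 CPM against 2081 to 3713 CPM in Notch3+/+ mice, with none of the markers at 0. Of the pericyte markers, 1 of 7 fell (Cspg4), and their sum was 2597 to 3293 CPM in Notch3-/- and 2782 to 3291 CPM in Notch3+/+ mice. With the mean of the smooth muscle list as a covariate, the log2 change of Kcnj8 was 0.36 with an adjusted p of 0.522, so the call was lost while the direction was kept. In that fit 23 of all genes were called, against 115 without the covariate. The list itself had a lower mean in Notch3-/- than in Notch3+/+ mice (6.72 ± 0.219 against 7.25 ± 0.263 log2 CPM, SD, n = 8). The fit therefore cannot tell a smaller change of Kcnj8 from lost power. With the pericyte list in place of the smooth muscle list, a choice made after the data were seen, the log2 change of Kcnj8 was 0.47 with an adjusted p of 0.0261.
Between the controls, 8 of 8 smooth muscle markers were lower in WT mice (sum 1145 to 1786 CPM) and 4 of 6 choroid plexus markers were higher (sum 292 to 25441 CPM, against 311 to 654 CPM in Notch3+/+ mice). Without the 7 choroid plexus-rich libraries, Kcnj8 stood 0.51 higher on the log2 scale with an adjusted p of 0.0610, while Abcc9 stayed called at 0.54 (adjusted p = 0.0218). That fit left out 4 of the 8 WT mice and called 402 of all genes, against 1398 with all mice. The lost call of Kcnj8 therefore cannot be told from lost power. With the smooth muscle list as a covariate, 0 of all genes were called between the controls, and the log2 changes were 0.63 for Kcnj8 and 0.30 for Abcc9.

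Kcnj2, the inward rectifier that senses potassium released by active neurons, had levels of 41.2 (lowest), 53.8 (median) and 71.6 (highest) CPM in Notch3+/+ mice. Among Notch3-/- mice they were 39.3, 46.9 and 51.5 CPM, within or just below the Notch3+/+ range. The log2 change of -0.19 (SE 0.09, 95% CI -0.39 to 0.003) had an adjusted p of 0.659.
In WT mice Kcnj2 ran from 36.0 through a median of 39.8 to 57.3 CPM, and in TgNotch3R169C mice from 34.6 through 45.4 to 69.9 CPM. TgNotch3R169C replicates 1 and 7 lay above every WT mouse and the others overlapped the WT range or lay just below it, with a log2 change of 0.24 (95% CI -0.05 to 0.54, adjusted p = 0.727). Between the controls the log2 change was -0.35 (SE 0.11, adjusted p = 0.0584), and 1 of 8 WT mice, replicate 1, lay above the Notch3+/+ mean. DESeq2 called Kcnj2 with all mice (-0.36, adjusted p = 0.0277). Without that WT mouse edgeR called it (-0.43, adjusted p = 0.0139), as it did without Notch3+/+ replicate 4 (-0.40, adjusted p = 0.0361) or replicate 8 (-0.39, adjusted p = 0.0498).

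Kcnj12, which encodes the related pore Kir2.2, had a lowest level of 5.08, a median of 7.31 and a highest of 10.2 CPM in Notch3+/+ mice and of 4.45, 5.79 and 7.52 CPM in Notch3-/- mice. All but 1 Notch3-/- mouse stood below the Notch3+/+ mean, yet the ranges overlapped and the log2 change of -0.32 (SE 0.13, 95% CI -0.59 to -0.05) had an adjusted p of 0.497. At 12 months the lowest, median and highest were 6.24, 7.85 and 11.6 CPM in WT and 6.32, 8.30 and 13.3 CPM in TgNotch3R169C mice. The log2 change there was 0.06 (95% CI -0.25 to 0.38, adjusted p = 0.936), and it was -0.04 without TgNotch3R169C replicate 5, the highest mouse.
Across mice, Kcnj2 and Kcnj12 tended in opposite directions. With group means removed, r was -0.389 (permutation within groups, p = 0.0441, adjusted over 4 pairs 0.176) and rho was -0.396 (p = 0.0308, adjusted 0.123), so neither passed the adjustment. The coefficient was below 0 within each of the 4 groups, between -0.266 and -0.635, and it was -0.455 without the 2 mice farthest from the Kcnj2 median. Such a coefficient was not particular to this pair, since Kcnj12 with Kcnj8 had r = -0.426. Kcnj12 went with astrocyte markers (r = 0.57) and Kcnj2 against them (r = -0.31), and the part of these in the coefficient was not tested.

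Kcnma1, the pore of the BK channel, is abundant in neurons as well as in smooth muscle. Its levels were 23.9 (lowest), 34.8 (median) and 67.2 (highest) CPM in Notch3+/+ and 17.2, 26.1 and 49.0 CPM in Notch3-/- mice, 19.7, 34.6 and 64.4 CPM in WT and 27.3, 42.4 and 59.7 CPM in TgNotch3R169C mice. The 4 groups overlapped widely. The log2 change was -0.33 in Notch3-/- mice (95% CI -0.80 to 0.14, adjusted p = 0.835) and 0.11 in TgNotch3R169C mice (95% CI -0.42 to 0.65, adjusted p = 0.936). Leaving out single mice moved the latter between 0.01 (without WT replicate 5) and 0.25 (without WT replicate 7). Without Notch3+/+ replicate 3, the highest mouse, the change in Notch3-/- mice was -0.15, less than 1 SE from 0.

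Kcnmb1, the beta subunit that raises the calcium sensitivity of BK channels in smooth muscle, had a lowest level of 10.3, a median of 14.9 and a highest of 19.5 CPM in Notch3+/+ mice. In Notch3-/- mice these were 7.54, 9.69 and 12.4 CPM. No Notch3-/- mouse reached the Notch3+/+ mean, and the highest Notch3-/- mice overlapped the lowest Notch3+/+ mice. The log2 change was -0.59 (SE 0.14, 95% CI -0.90 to -0.29) with an adjusted p of 0.0834. Without Notch3+/+ replicate 8, the lowest of its group, the change was -0.64 with an adjusted p of 0.0396, and DESeq2 gave 0.00819 with all mice.
In WT mice Kcnmb1 ran from 6.33 through a median of 8.40 to 9.47 CPM, and every WT mouse stood below every Notch3+/+ mouse. Of all genes, 1.24% had groups that did not overlap in this comparison, and Kcnmb1 was the 1 channel gene among them. The log2 change was -0.83 (SE 0.12, 95% CI -1.09 to -0.57, adjusted p = 0.00112), and without the choroid plexus-rich libraries it was -0.76 (adjusted p = 0.0344). TgNotch3R169C mice, at 5.03 (lowest), 7.26 (median) and 8.76 (highest) CPM, overlapped WT mice (log2 change -0.22, 95% CI -0.48 to 0.03, adjusted p = 0.709).

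Most smooth muscle markers had lower means where Kcnmb1 did: 5 of 8 fell in Notch3-/- mice, where Des had a higher mean, 8 of 8 fell between the controls, and 8 of 8 had lower means in TgNotch3R169C mice, where 0 were called and their sum was 955 to 1483 CPM against 1145 to 1786 CPM in WT mice. With the mean of that list as a covariate, the log2 change of Kcnmb1 was -0.05 in Notch3-/- mice, -0.03 between the controls and 0.03 in TgNotch3R169C mice. Kcnmb1 was called in none of these fits. The list itself had a lower mean in each comparison, and Kcnmb1 went with it across mice (r = 0.83, group means removed). These fits therefore cannot separate a change of Kcnmb1 from that of the list. Kcnmb1 and Kcnma1 did not vary together: r over 32 mice with group means removed was 0.0224 (permutation within groups, p = 0.902, adjusted 0.946) and rho was -0.0260 (p = 0.887, adjusted 0.887). The ratio of Kcnmb1 to Kcnma1 per kilobase averaged 1.67 ± 0.477 in Notch3+/+, 1.48 ± 0.709 in Notch3-/-, 1.03 ± 0.489 in WT and 0.723 ± 0.226 in TgNotch3R169C mice (SD, n = 8, no test). On counts, not divided by exon length, the ratio averaged 0.411, 0.365, 0.254 and 0.179 in the same order. Kcnip1, a gene on the opposite strand whose body covers Kcnmb1, had means of at most 4.41 CPM in the groups, scaled to library totals without TMM. Whether reads were counted by strand is not given in the sources used here.

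Kcnn3 encodes SK3, an endothelial channel that is also common in neurons. It had a lowest level of 9.37, a median of 12.4 and a highest of 15.7 CPM in Notch3+/+ mice and of 9.24, 12.3 and 14.4 CPM in Notch3-/- mice. These groups lay on top of each other (log2 change -0.005, 95% CI -0.26 to 0.25, adjusted p = 0.998).
At 12 months Kcnn3 ran from 7.38 through a median of 10.4 to 13.5 CPM in WT mice and from 10.5 through 14.3 to 21.3 CPM in TgNotch3R169C mice. All 8 TgNotch3R169C mice exceeded the WT mean, and 4 of them lay above every WT mouse. The log2 change of 0.57 (SE 0.17, 95% CI 0.21 to 0.92, unadjusted p = 0.00393) did not pass adjustment over all genes (adjusted p = 0.470). Markers of neurons had higher means in these mice for 9 of 9 genes, with 0 called, a summed level of 349 to 1103 CPM against 216 to 724 CPM in WT mice and none at 0. With the neuron list as a covariate the log2 change of Kcnn3 was 0.32, and without the choroid plexus-rich libraries it was 0.35. The mutants' changes of Kcnn3 differed by 0.58 (SE 0.21, adjusted p = 0.394), or by 0.38 without the choroid plexus-rich libraries (adjusted p = 0.651).

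Kcnn4, the intermediate-conductance channel of endothelial cells, had a lowest level of 7.16, a median of 10.7 and a highest of 12.4 CPM in Notch3+/+, 6.97, 10.7 and 16.4 CPM in Notch3-/-, 6.60, 8.27 and 11.9 CPM in WT and 7.72, 10.1 and 13.5 CPM in TgNotch3R169C mice. All 4 groups overlapped. Log2 changes were 0.16 in Notch3-/- mice (95% CI -0.18 to 0.50, adjusted p = 0.922) and 0.18 in TgNotch3R169C mice (95% CI -0.08 to 0.45, adjusted p = 0.764). Kcnn3 and Kcnn4 showed no common variation across mice (r = 0.0124, permutation within groups, p = 0.946, adjusted 0.946; rho = -0.0301, p = 0.872, adjusted 0.887).

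The genes around the channels were read from 4 further lists. Of 13 other subunits of the same families, 10 passed the filter on low counts in the comparison of each mutant and none was called in either. Abcc8 and Kcnj11, the KATP subunits of neurons and pancreatic beta cells, had means of 2.25 to 5.50 CPM and 2.44 to 4.81 CPM in the groups. The median log2 change of these subunits was -0.02 in Notch3-/- and 0.25 in TgNotch3R169C mice. Between the controls 9 of the 13 were tested and none was called, Abcc8 having the largest difference (1.25, adjusted p = 0.0856).

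Of 13 genes for calcium sources and signals that act on BK, SK and IK channels, 0 were called in either mutant. Between the controls 3 fell and 1 rose. The fallers were Prkg1, the kinase activated by cGMP (-0.48, adjusted p = 0.00171), Gucy1b1, a subunit of the nitric oxide receptor (-0.44, adjusted p = 0.0134), and Cacna1c, the voltage-gated calcium channel of smooth muscle (-0.31, adjusted p = 0.0308). Trpv4, a calcium entry channel that is also strongly expressed in choroid plexus, was the riser (1.19, adjusted p = 0.0492). Without the 7 choroid plexus-rich libraries the log2 change of Trpv4 was -0.05 (adjusted p = 0.895), and with the choroid plexus list as a covariate it was -0.20 (adjusted p = 0.676). The lower smooth muscle markers and higher choroid plexus markers of these WT mice stood beside the changes of Prkg1, Gucy1b1 and Cacna1c as well. With the smooth muscle list as a covariate their log2 changes were -0.17, -0.17 and -0.21, in a fit where 0 of all genes were called. Without the choroid plexus-rich libraries Prkg1 alone of the 3 was called (-0.44, adjusted p = 0.0303), with Gucy1b1 at -0.37 (adjusted p = 0.136) and Cacna1c at -0.20 (adjusted p = 0.195). That fit called 402 of all genes, against 1398 with all mice. When mice were left out one at a time, Trpv4 was called in 4 of 16 fits (without WT replicate 1, 3, 7 or 8), and Cacna1c in 10, losing its call without Notch3+/+ replicate 1, 2, 6 or 7 or WT replicate 2 or 5 (adjusted p up to 0.0665). Ryr2, the ryanodine receptor whose calcium sparks open BK channels, had log2 changes of -0.33 in Notch3-/- mice (adjusted p = 0.883) and 0.40 in TgNotch3R169C mice (adjusted p = 0.730).
None of the 10 receptors and cAMP signals that act on KATP channels was called in any comparison. Their log2 changes lay between -0.26 and 0.08 in Notch3-/- mice and between -0.19 and 0.43 in TgNotch3R169C mice. Calcrl and Ramp1, which form the receptor for the vasodilator peptide CGRP, had changes of 0.03 and 0.08 in Notch3-/- mice and of -0.10 and 0.05 in TgNotch3R169C mice.

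Of 6 genes for the spread and anchoring of hyperpolarization, 1 was called in TgNotch3R169C mice: Gja5, which encodes connexin 40 of the arterial endothelium. Gja5 was 32.03 ± 3.65 CPM in TgNotch3R169C and 21.1 ± 3.53 CPM in WT mice (SD, n = 8), a log2 change of 0.60 (SE 0.10, 95% CI 0.39 to 0.80, adjusted p = 0.0189), and 8 of 8 TgNotch3R169C mice exceeded the WT mean. Over 14 alternative settings the log2 change was 0.51 to 0.63, and the call was lost in 5. Among them were the fit without the choroid plexus-rich libraries (0.63, adjusted p = 0.159) and that with the smooth muscle list as a covariate (0.57, adjusted p = 0.112). The first of these left out 4 WT and 2 TgNotch3R169C mice and called 2 of all genes, against 20 with all mice. Its lost call therefore cannot be told from lost power. The call was lost as well without WT replicate 3 (adjusted p = 0.0574) or WT replicate 4 (adjusted p = 0.05001). In Notch3-/- mice none of the 6 was called, and Gja5 had a log2 change of -0.40 (adjusted p = 0.782). Between the controls 5 of the 6 fell: Gja5 (-1.16, adjusted p = 0.00317), Gja4 (-0.53, adjusted p = 0.0180), Gja1 (-0.42, adjusted p = 0.000338), Gjc1 (-0.42, adjusted p = 0.00680) and Cavin1 (-0.31, adjusted p = 0.0135), while Cav1 was at -0.08 (adjusted p = 0.345). Gja1 also belongs to the astrocyte marker list. With the smooth muscle list as a covariate, a fit where 0 of all genes were called, the log2 changes were -0.99 for Gja5, -0.03 for Gja4, -0.40 for Gja1, -0.16 for Gjc1 and -0.05 for Cavin1. Without the choroid plexus-rich libraries Gja1 and Gjc1 were called, while Gja5 (-1.16, adjusted p = 0.0579), Gja4 (-0.51, adjusted p = 0.0976) and Cavin1 (-0.32, adjusted p = 0.0811) were not. That fit called 402 of all genes, against 1398 with all mice. Of 8 endothelial markers, 1 fell between the controls, Pecam1 (-0.52, adjusted p = 0.00285), 7 of 8 had lower means, and their sum was 1379 to 1713 CPM in WT and 1502 to 2017 CPM in Notch3+/+ mice. In TgNotch3R169C mice 0 of the 8 were called, 7 had higher means than in WT mice, and the sum was 1367 to 1956 CPM. No endothelial marker was at 0, and the part of these in the changes of Gja5 was not tested.

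**Figure D3:**
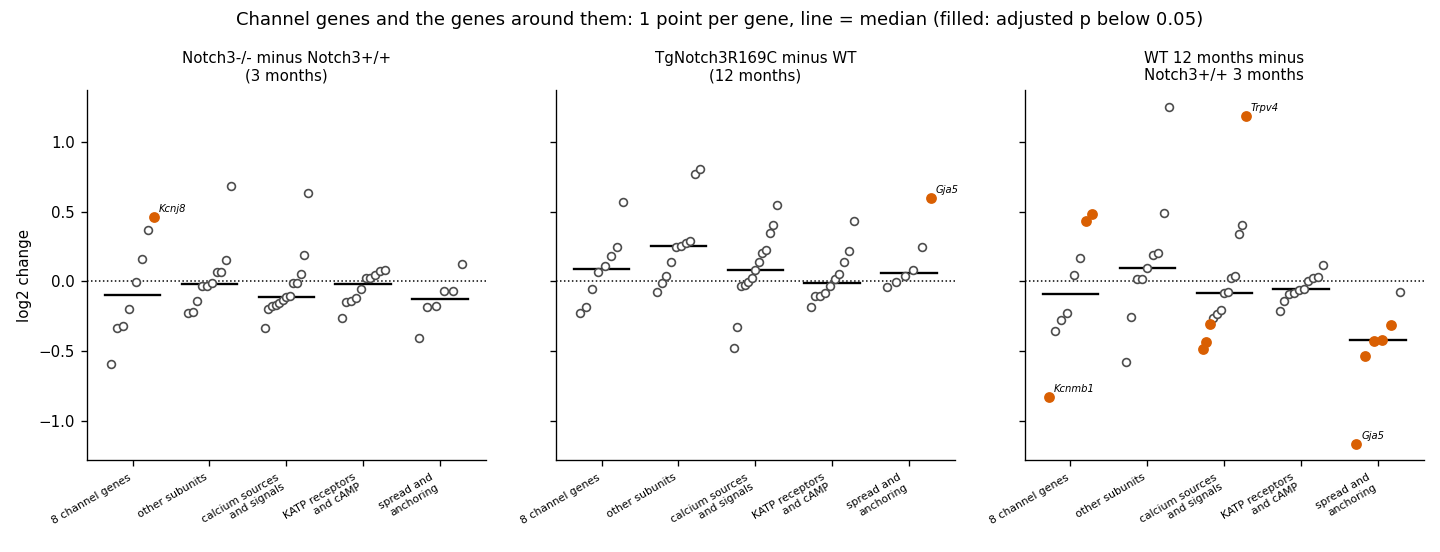
Log2 change (vertical axis) of each tested gene of the 8 channel genes and of 4 lists around them, in 3 panels, one per comparison; lines are medians and filled points have an adjusted p below 0.05. Kcnj8 is the one filled point in Notch3-/- mice and Gja5 the one in TgNotch3R169C mice, and 12 points are filled between the controls.

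Across the 32 mice, with group means removed, the channel genes went with markers of different cells. Over these mice, which share library preparation and depth effects between genes, the closest list to Kcnma1 was that of neurons (r = 0.88) and the closest to Kcnmb1 was that of smooth muscle (r = 0.83). Kcnma1 also went with astrocyte markers (r = 0.57) and Kcnmb1 with pericyte markers (r = 0.50). The cells that express these partners of the BK channel were not tested. Kcnj8 was closest to pericyte markers (r = 0.57), Kcnn4 to endothelial markers (r = 0.63), Kcnn3 to neuron markers (r = 0.58) and Kcnj12 to astrocyte markers (r = 0.57). Abcc9 and Kcnj2 followed no list closely, with coefficients no larger than 0.28 and 0.35.

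**Figure D4:**
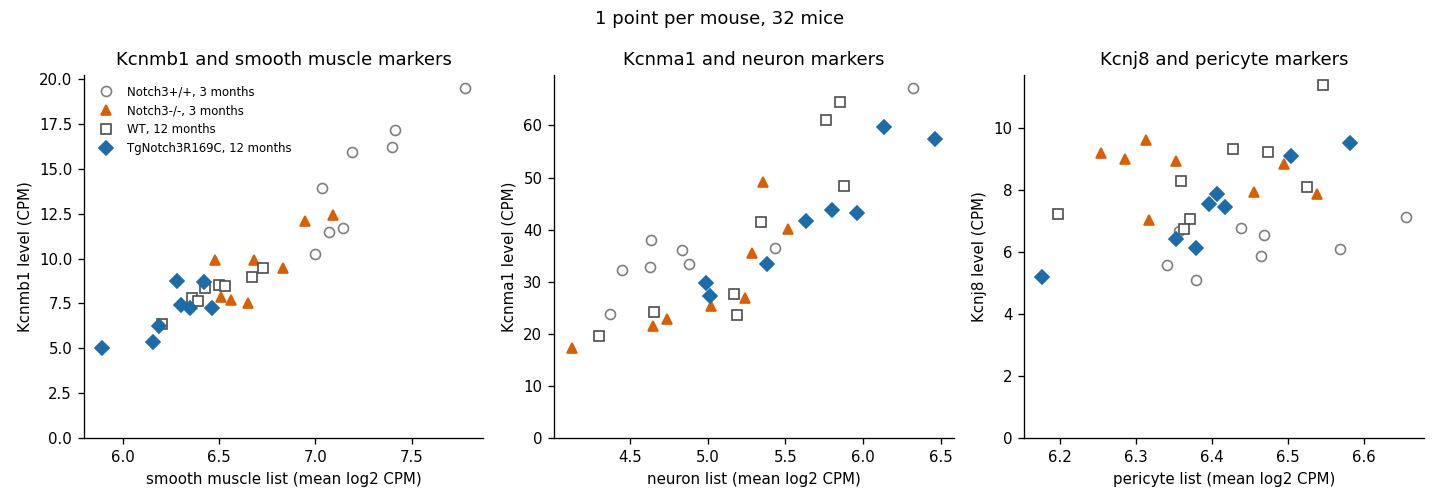
Level of Kcnmb1, Kcnma1 and Kcnj8 in CPM (vertical axes from 0) against the mean log2 CPM of the smooth muscle, neuron and pericyte marker lists (horizontal axes), 1 point per mouse and 1 symbol per group. Kcnmb1 rises with the smooth muscle list and Kcnma1 with the neuron list along the 4 groups together, whereas Kcnj8 of Notch3-/- mice lies above that of Notch3+/+ mice at like pericyte levels.

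**Figure D5:**
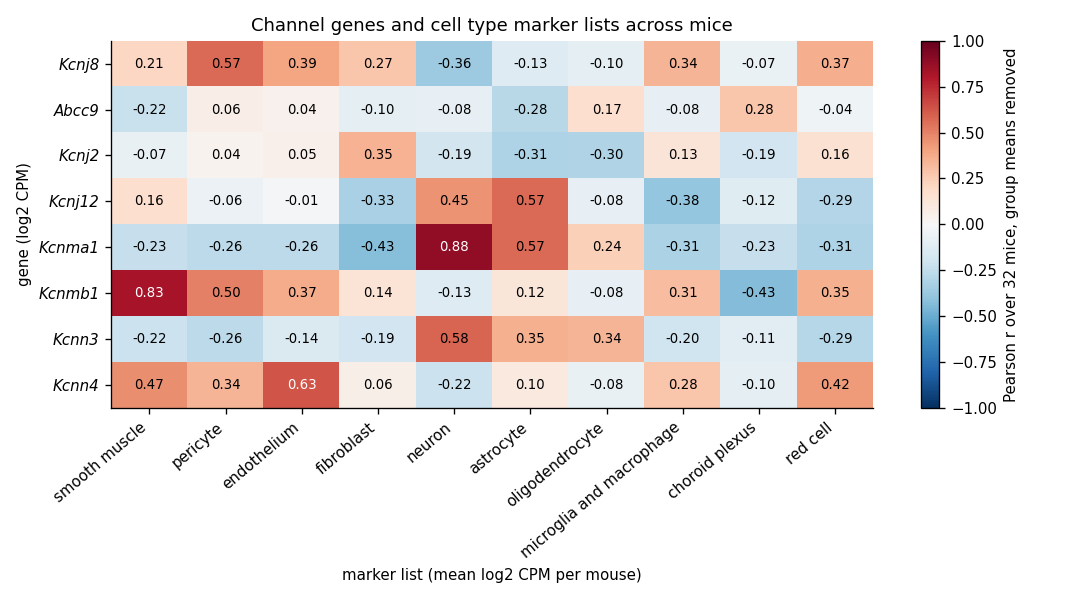
Pearson r, over 32 mice with group means removed, between each channel gene (rows) and the mean of each marker list (columns); red is above and blue below 0. The largest coefficients are 0.88 for Kcnma1 with neuron markers and 0.83 for Kcnmb1 with smooth muscle markers.

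The genes whose levels were most like those of each channel gene were taken as the 5 with the highest r among 15537 genes, again over 32 mice with group means removed. For Kcnmb1 they were Myom1, Acta2, P2rx1, Myh11 and Cnn1 (r = 0.83 to 0.86), of which Acta2, Myh11 and Cnn1 are smooth muscle markers. For Kcnma1 they were Sptbn4, Cnnm1, Cacna1e, Frrs1l and Ajm1 (0.93 to 0.95). For Kcnj8 they were Slc38a5, Ifnar2, Rab17, Etnk2 and Neurl2 (0.72 to 0.77), and for Abcc9 they were Gm48194, Meox2, Tiparp, Cilp and Ippk (0.60 to 0.67), with no gene in both lists.
Kcnj2 was most like Gm17491, F3, Btg2, Nr4a1 and Slc7a6os (0.64 to 0.79), of which Btg2 and Nr4a1 are immediate early genes that respond within minutes to stimulation of a cell. Kcnj12 was most like Lcat, Astn2, Spire1, Pde1c and Slc25a18 (0.73 to 0.76). Kcnn3 was most like Cdh2, Tram1l1, Mfsd6, Pianp and Prune2 (0.82 to 0.86), and Kcnn4 was most like Egfl8, Card10, Sema3g, Epas1 and Jag2 (0.80 to 0.86).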

How the data were processed

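Total RNA of brain arteries was made into stranded, poly(A)-selected libraries. The deposited values are raw counts, whole numbers of reads for each Ensembl gene that the authors had not normalized; their processing notes name cutadapt 1.10, Bowtie2 2.2.8, STAR 2.5.3a, HTSeq 0.6.1p1 and build mm39, and the strand setting of the counting is not given in the sources used here. Symbols came from a table of mouse gene names (52081 of 55357 identifiers matched), exon lengths and overlaps from GENCODE vM21, and promoters from RefSeq (GRCm38.p6, 8 of 8 genes matched); these use an older build than the counts. Counts were fitted in R 4.3.3 with edgeR 4.0.16 (filterByExpr, TMM, quasi-likelihood test, 2 groups per fit, all 32 libraries for the difference between the mutants' changes), and a gene was called where its adjusted p (Benjamini-Hochberg, over all genes tested) was below 0.05. DESeq2 1.42.0 and limma 3.58.1 were alternatives.

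Levels are TMM-scaled CPM, except that of Kcnip1, which was scaled to library totals alone. Intervals are 95% CIs of the fit, and correlations used log2 CPM minus group means and 100000 permutations within groups. Genes named are the 8 channel genes, list genes that were called and up to 4 others of a list, the 5 genes most like each channel gene (mean of at least 1 CPM), and Notch3. The genes and lists were chosen with earlier results of these data known. No 2 libraries of a group were duplicates, since the difference between them was 10.9 to 148 times the counting noise (chi-square per gene). Replicate numbers do not pair mice across groups. Nothing in the labels ties mice to litters or batches.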

Additional observations from a re-analysis of the deposited data

Results flagged for a closer look

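In 3 of the 32 sets of 8 mice (8 genes in 4 groups), the highest mouse stood apart from the others beyond Dixon's 95% critical value for 8 values, where chance alone gives about 1.6. WT replicate 1 had 57.3 CPM of Kcnj2 against 45.5 CPM in the next mouse (gap over range 0.552). TgNotch3R169C replicate 5 had 13.3 CPM of Kcnj12 against 9.33 CPM in the next (0.565), and this library is among the 7 rich in choroid plexus markers. Notch3+/+ replicate 3 had 67.2 CPM of Kcnma1 against 38.1 CPM in the next (0.673), and its neuron markers were the highest of its group too, with a mean log2 CPM of 6.32 against at most 5.43 in the other Notch3+/+ mice. With the neuron list as a covariate the log2 change of Kcnma1 in Notch3-/- mice was -0.38, against -0.33 without it.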

How the results depend on the processing

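The number of channel genes called in Notch3-/- mice was 1 as reported, where 115 of all genes were called. It was 3 with DESeq2 (280 of all genes), 3 with all 4 groups in one fit (174) and 3 at a threshold of 0.1 (181). With the smooth muscle list as a covariate it was 0 (23 of all genes). When mice were left out one at a time it was 1 to 3 (3 without Notch3+/+ replicate 8, with 141 of all genes). Between the controls it was 3, where 1398 of all genes were called, and 3 to 4 when mice were left out. It was 4 with DESeq2 (2357 of all genes) or at a threshold of 0.1 (2512), with Kcnj2 added. It was 2, with Kcnj8 lost, with the choroid plexus covariate (268), without the choroid plexus-rich libraries (402) or at a threshold of 0.01 (343). With the smooth muscle covariate it was 0 (0 of all genes). For the difference between the mutants' changes it was 0, where 65 of all genes were called, and 0 to 1 when mice were left out. It was 1 with DESeq2 (152 of all genes), with the pericyte covariate (105) or at a threshold of 0.1 (115). In TgNotch3R169C mice it was 0 under every alternative run, where 2 to 74 of all genes were called. The subset without the choroid plexus-rich libraries and the pericyte covariate were chosen after the data were seen, and where the cause of a change is not given, the cause was not tested.

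The replicate numbers were not used to pair mice, since same-numbered mice did not deviate together (r -0.138 to 0.338 for Notch3-/- with Notch3+/+ mice, -0.247 to 0.424 for TgNotch3R169C with WT mice and -0.187 to 0.238 between the controls), and 3, 1 and 2 of 8 mice correlated best with their own number. With the replicate number as a block, 2 channel genes were called in Notch3-/- mice (Kcnj8, and Kcnmb1 at an adjusted p of 0.0305, edgeR), 0 in TgNotch3R169C mice, 2 between the controls (Kcnj8 was lost, adjusted p = 0.0644) and 0 for the difference, and the calls over all genes went from 115, 20, 1398 and 65 to 97, 6, 715 and 63.

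Changes of sign concerned values that were not called, besides that of Trpv4, and not all of them were small. As reported, Kcnj8 stood at -0.18 and Kcnmb1 at -0.22 in TgNotch3R169C mice, and Kcnn4 at -0.22 between the controls. For Notch3-/- mice Kcnn3 was 0.0056 without a filter on low counts, 0.0036 with limma voom and 0.0033 with the replicate block (leaving out mice, -0.047 to 0.058). In TgNotch3R169C mice the smooth muscle covariate gave 0.044 for Kcnj8, -0.049 for Kcnj12, -0.0068 for Kcnma1 and 0.028 for Kcnmb1, the neuron covariate gave -0.12 for Kcnj12 and -0.20 for Kcnma1, and the fit without the choroid plexus-rich libraries gave -0.19 and -0.12 (Kcnj12, leaving out mice, -0.036 to 0.15). Between the controls Kcnma1 was -0.044 with voom, -0.029 with the replicate block, -0.27 with the smooth muscle and -0.28 with the neuron covariate (leaving out mice, -0.10 to 0.22), Kcnn4 was 0.24 with the smooth muscle covariate, and Trpv4 was -0.20 with the choroid plexus covariate and -0.047 without the choroid plexus-rich libraries. The difference between the mutants' changes of Kcnn4 was -0.16 with the smooth muscle and -0.030 with the pericyte covariate (leaving out mice, -0.057 to 0.11). The correlation of Kcnn3 with Kcnn4 was -0.0146 without the 2 mice farthest from the median and -0.0901 without the choroid plexus-rich libraries.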
